A study of Mus musculus with 163 samples.

Results

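A mouse oocyte can be grown from a stem cell in culture, and the end point of that growth, the fully grown oocyte (FGO), was compared here with its natural counterpart. The comparison set all 24 FGOs grown from an induced pluripotent stem cell (iPSC) line against all 20 FGOs collected from mice, 44 of the 163 single oocytes of the series, and was made across all genes. The oocytes were chosen by their labels alone and by no measured value. The study sequenced single growing oocytes (GROs) and FGOs of several origins to look for causes of the low competence of oocytes made in culture. An iPSC-derived FGO passed through 3 culture steps: in vitro differentiation into germ cell precursors (IVP), in vitro differentiation into GROs within a reconstituted ovary (IVD) and in vitro growth to the FGO (IVG). In vivo FGOs passed through none.

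The iPSC-derived oocytes all came from 1 line, BVSC-iPSC, which was made from adult tail tip fibroblasts and carries the reporters Blimp1-Venus and Stella-ECFP. Their reconstituted ovaries held somatic cells of E12.5 gonads from outbred Swiss Webster mice. Oocytes without Stella-ECFP were also seen in these cultures, and the study takes them as likely to stem from germ cells left among the gonadal cells. The strain of the mice behind the in vivo oocytes is not given in the sources used here. Stock, source and culture thus differed together between the groups and cannot be told apart. Also used below are 24 gonad-derived FGOs (E12.5 germ cells, IVD and IVG), 24 FGOs grown by IVG only from follicles of 6-day-old mice (6 dpp, days post partum), and the GROs of the iPSC (23), gonad (24) and in vivo (24) sources. Each oocyte was freed of its zona and of attached cells, and its polyadenylated RNA was sequenced alone.

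As background, an oocyte stocks RNA and protein while it grows, and transcription falls silent near the end of growth, so that a fully grown oocyte runs on what it has stored. The store serves meiotic maturation, fertilisation and the first cleavages, and its quality is known to limit the embryo. Among its well known parts are the zona pellucida glycoproteins, the growth factors Gdf9 and Bmp15, and the proteins of the subcortical maternal complex and the cytoplasmic lattices.

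Levels are given in CPM, the reads of a gene scaled to the same total of gene reads in every library, which are not corrected for gene length and are compared within a gene only. A ratio is the log2 of the pooled CPM + 0.5 of iPSC-derived over in vivo FGOs, so that it understates changes of genes at low levels. No label names the animal or the culture behind an oocyte, so each group counts as 1 sample and no test was made. The spread over oocytes is given as the lowest, median and highest CPM, and intervals are exact Poisson intervals of pooled counts at 95%, which cover counting error only. A set of genes is described by counts of members at least 4-fold apart, beside the same over all genes. Summed levels of some lists are also given. How often other sets of genes separate in this way was not taken, so a separation of sums is not read as a result about a list.

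Gene totals ran from 3990217 to 7784730 reads in iPSC-derived and from 6442882 to 8793876 reads in in vivo FGOs. Each of the 44 oocytes correlated more closely with its own group than with the other. A first principal component with 36.2% of the variance placed the iPSC-derived oocytes between 24.9 and 45.2 and the in vivo oocytes between -56.2 and -23.5. On a second component (12.2%) the in vivo oocytes ran from -32.1 to 67.9 and the iPSC-derived oocytes from -11.3 to 21.9, with in vivo FGOs 7, 19, 5 and 22 at its far end. The study set those 4, in vivo FGO 16 and iPSC-derived FGO 13 aside by size, and values without these 6 oocytes are given where they matter. All 17 oocyte identity genes in the table had reads in both groups. The summed level of 12 granulosa cell markers was 52.7, 89.7 and 117 CPM in the lowest, median and highest iPSC-derived FGO and 93.2, 119.9 and 413 CPM in vivo, with in vivo FGO 19 highest. Among them Cyp19a1 had 61.9 and 64.1 CPM pooled and Gja1 1.91 and 30.6 CPM, while Amh stood at 0.00602 and 1.10 CPM and Amhr2 at 0 and 0.331 CPM.

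Most transcripts were at like levels in both kinds of FGO. Of 13582 genes with more than 1 CPM in at least 3 of the 92 FGOs, 86.1% lay within 2-fold (87.3% without the 6 oocytes set aside by size). The median ratio was -0.09. In iPSC-derived FGOs 116 genes were at least 4-fold higher (0.854% of all genes tested) and 153 at least 4-fold lower (1.13%). At 2-fold these counts were 547 (4.03%) and 1337 (9.84%). The median pooled level of the 116 higher genes was 9.96 CPM in iPSC-derived and 0.890 CPM in in vivo FGOs, and 63 of them were under 1 CPM in vivo. That of the 153 lower genes was 1.19 CPM and 9.29 CPM, and 60 were under 1 CPM in iPSC-derived FGOs.

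**Figure D1:**
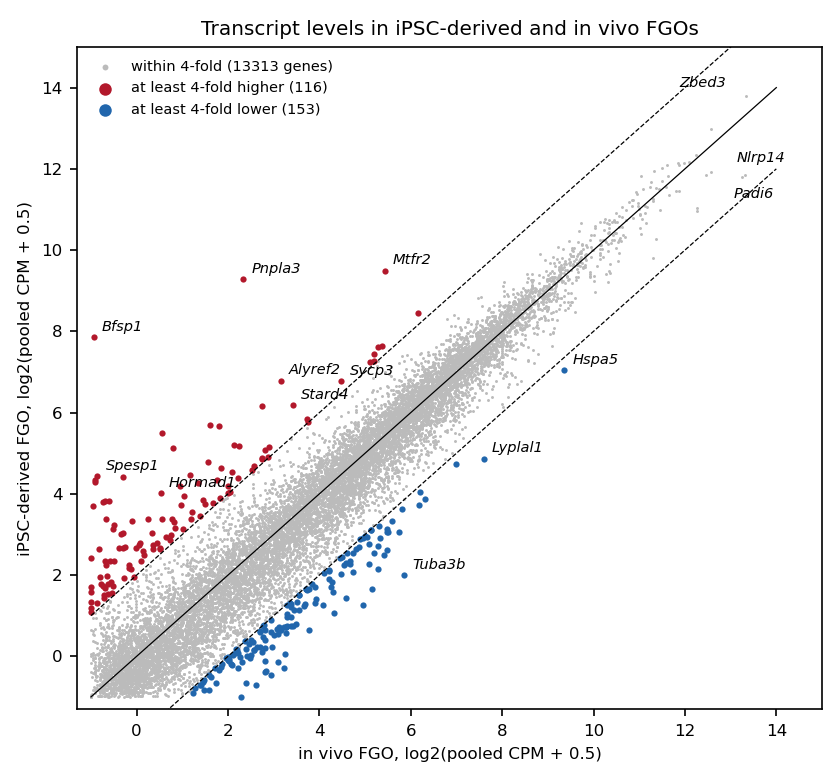
Pooled level of each of 13582 genes in in vivo FGOs (x axis) and iPSC-derived FGOs (y axis), both as log2(CPM + 0.5); the solid line marks equal levels and the dashed lines 4-fold. The 116 genes above the band include Bfsp1, Pnpla3 and Mtfr2, and the 153 below it include Hspa5, Lyplal1 and Tuba3b.

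For 46 of the higher genes (0.339% of all genes tested) every iPSC-derived FGO lay above every in vivo FGO, and for 36 of the lower genes (0.265%) every one lay below. Without regard to size, groups did not overlap for 166 higher (1.22%) and 265 lower genes (1.95%). By calls at 4-fold with oocytes left out, the higher set was the steadier of the pair. Without the 6 oocytes set aside by size, 9 of the 116 higher and 66 of the 153 lower genes fell short of 4-fold, and 107 and 87 remained. In all, 124 higher and 104 lower genes were counted without those oocytes. Genes past 4-fold without overlap then rose to 57 higher and 48 lower. All but 1 of the 6 oocytes were in vivo FGOs, the group in which the lower genes stood higher. Leaving out 1 oocyte moved 17 of the higher and 45 of the lower genes below 4-fold, and the count of lower genes was least, 128, without in vivo FGO 19. Neither set was confined to a chromosome: 6 of the higher (5.17%) and 8 of the lower genes (5.23%) were X-linked, against 3.68% of all genes, and the median ratio of X-linked genes exceeded that of autosomal genes by 0.0074.

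Chief among the higher genes were transcripts that were near or at background in in vivo FGOs. Bfsp1 (chr2:143826528-143915219, GRCm38), which encodes filensin, a filament protein known from the eye lens, was at 129 CPM in the lowest, 227 in the median and 492 in the highest iPSC-derived FGO. Among the in vivo FGOs it did not exceed 0.271 CPM. Only 3 reads fell on it in all 20 in vivo oocytes, against 38367 in the iPSC-derived oocytes, a ratio of 11156-fold with a counting interval of 3817 to 54098. No oocyte of either group fell between these ranges.

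Pnpla3 (chr15:84167776-84189521), a lipid droplet hydrolase also known as adiponutrin, was at 321, 630.5 and 805 CPM in the lowest, median and highest iPSC-derived FGO. In vivo FGOs held 3.27, 4.29 and 6.58 CPM, which put the ratio at 6.95. Here the transcript was present in every in vivo oocyte, at a low level of narrow spread, and the groups were far apart. Spesp1 (chr9:62270729-62282179), a protein of the sperm equatorial segment, was at 4.20, 20.5 and 41.5 CPM in iPSC-derived FGOs and at most 0.284 CPM in vivo, a ratio of 5.31. Mtfr2, a mitochondrial fission regulator named here after its values were seen, stood out for its level, with 580, 715 and 929 CPM against 26.01, 39.6 and 66.0 CPM (ratio 4.07). Alyref2, an mRNA export adaptor with a close paralog and also named afterwards, was at 69.6, 114 and 167 CPM against 5.03, 8.44 and 12.4 CPM (3.64). Each of these transcripts separated all 24 from all 20 oocytes.

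Next in size of ratio after Spesp1 among the genes named by rule was the adenylyl cyclase gene Adcy2 (5.26), with 0.519, 9.93 and 76.9 CPM in iPSC-derived FGOs and at most 0.303 CPM in vivo. Fam124a followed at 5.202 (18.9 against 0.0276 CPM pooled). A930015D03Rik had a ratio of 4.94 (44.6 against 0.966 CPM). It overlaps H2-T22, H2-T23 and H2-T24, and whether the counting used the strand is not given in the sources used here. The groups did not overlap for these genes, nor for the beta-defensin gene Defb48 (12.49 against 0.0138 CPM, ratio 4.66), Skint5 (13.5 against 0.0966 CPM, ratio 4.55) and the homeobox gene Pknox2 (13.72 against 0.159 CPM, ratio 4.43). Defb48 and Skint5 belong to multigene families, so that their levels are uncertain. Pxdn, a peroxidase that crosslinks collagen, was at 0, 20.9 and 36.5 CPM against 0, 0.134 and 2.58 CPM (ratio 4.69), and 1 or more iPSC-derived FGOs lay in the in vivo range. The immune receptor gene Nfam1 (4.51) and the keratin gene Krt79 (4.32) overlapped in the same way. Krt79 ranged from 4.08 to 96.6 CPM among iPSC-derived FGOs. Tnr and Sis had no read in the 20 in vivo FGOs, and were at least 233-fold and 133-fold higher in iPSC-derived FGOs against a floor of 3 reads over the group (4.83 and 2.76 CPM pooled).

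**Figure D2:**
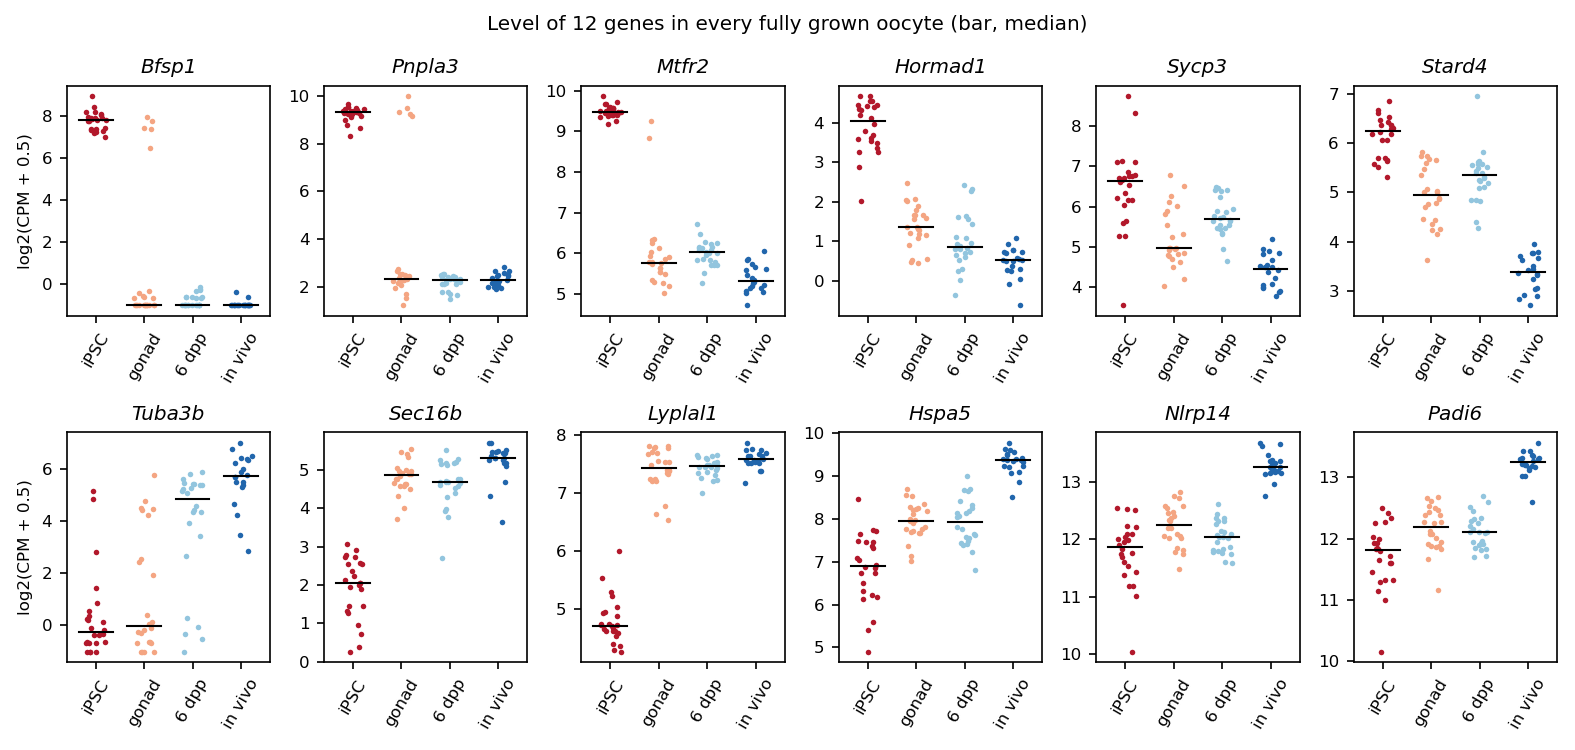
Level of 12 genes in every FGO, as log2(CPM + 0.5), by source (24 oocytes from iPSCs, 24 from gonads, 24 from 6 dpp follicles, 20 in vivo); the bar is the median of a group. Bfsp1 and Pnpla3 were high in all iPSC-derived FGOs and in a few gonad-derived FGOs only, while Hspa5, Nlrp14 and Padi6 were below the in vivo range in all 24 iPSC-derived FGOs.

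The lower genes seldom reached such ratios. Tuba3b, an alpha-tubulin with a near-identical relative, had the most negative ratio of those named by rule, -3.85. It was at 0, 0.345 and 34.8 CPM in the lowest, median and highest iPSC-derived FGO and at 6.75, 52.0 and 126 CPM in vivo. The highest iPSC-derived FGOs thus reached into the in vivo range. The ratio of Tuba3b was -4.50 without iPSC-derived FGO 21. Sec16b, which acts at endoplasmic reticulum (ER) exit sites, was at 0.703, 3.65 and 7.86 CPM against 12.0, 39.5 and 51.7 CPM (ratio -3.13), with no overlap. The kallikrein gene Klk15 did not overlap either, at 1.89 CPM or less against 2.03 CPM or more (-3.22). Lyplal1 (chr1:186087732-186117310), a lysophospholipase-like gene named after its values were seen, was at 18.8, 25.9 and 63.3 CPM against 144, 191 and 233 CPM (-2.73). No read of Ttll7, a tubulin polyglutamylase gene named likewise, was found in the 24 iPSC-derived FGOs, against 0.733, 3.55 and 12.1 CPM in vivo. It was at least 241-fold lower against a floor of 3 reads over the group.

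Other lower genes named by rule overlapped between the groups. Tnfrsf21, a death receptor, was at 0, 1.19 and 13.2 CPM against 8.64, 31.5 and 61.5 CPM (ratio -3.49). Gpd2, the mitochondrial glycerol-3-phosphate dehydrogenase, was at 0, 1.12 and 5.73 CPM against 4.72, 16.9 and 58.1 CPM (-3.26). In both cases the median iPSC-derived oocyte lay below every in vivo oocyte, while the highest reached into the in vivo range. Plek (-3.16), Mpo (-3.17), C130074G19Rik (-3.20), Mmp1b (-3.19), Deup1 (-3.33) and Piwil2 (-3.12) had pooled levels between 5.61 CPM (Deup1) and 23.6 CPM (Plek) in vivo, and between 0.108 and 2.196 CPM for the same genes in iPSC-derived FGOs. Without the 6 oocytes set aside by size the ratios of Mmp1b, Piwil2 and Deup1 were -2.41, -2.37 and -2.65. Piwil2, a PIWI protein of the piRNA pathway, was at 16.9 CPM or more in every GRO of the iPSC source and 53.2 CPM or more in every in vivo GRO, so that its transcript was lower in FGOs of both kinds. The same order held for Deup1, a gene of centriole amplification, at 6.37 CPM or more in every iPSC-derived GRO and at most 0.678 CPM in iPSC-derived FGOs. Gja1 encodes connexin 43, the gap junction protein of granulosa cells. It had a ratio of -3.69 (1.91 against 30.6 CPM pooled), but in vivo FGO 19, the oocyte with the most granulosa marker reads, held 294 CPM of it. The ratio was -2.61 without that oocyte and -1.62 without the 6 oocytes set aside by size, and the part of granulosa RNA in it was not tested.

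Near the threshold, Ltbp4 and Ptpn5 lay just inside on the higher side (both 2.01) and Rsrp1 and Uggt2 just outside (1.99 and 1.97). On the lower side Rdh16 (-2.001) and Spsb1 (-2.002) were just inside and Slamf1 (-1.999) and Lrmda (-1.998) just outside. The groups overlapped for Ltbp4, Rdh16, Spsb1 and Slamf1 and not for Ptpn5, Rsrp1, Uggt2 and Lrmda. Leaving out 1 oocyte moved each of the 4 genes inside below the threshold: Ltbp4 to 1.90 (iPSC-derived FGO 18), Ptpn5 to 1.97 (iPSC-derived FGO 22), Rdh16 to -1.87 (in vivo FGO 19) and Spsb1 to -1.68 (in vivo FGO 16). Without the 6 oocytes set aside by size Spsb1 was at -1.16.

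The same contrast in growing oocytes shares no library with the FGO contrast. Of 13422 genes tested there, 141 were at least 4-fold higher (1.05%) and 28 at least 4-fold lower (0.209%) in iPSC-derived GROs. Genes higher in iPSC-derived FGOs were mostly higher in GROs too: 112 of 116 had a positive GRO ratio (96.6%, against 47.3% of all genes), 95 were at least 2-fold (81.9%, against 5.23%) and 61 at least 4-fold higher (52.6%, against 1.03%). Their median GRO ratio was 2.19. Of the genes lower in FGOs, 123 of 153 had a negative GRO ratio (80.4%, against 52.6% of all genes), 47 were at least 2-fold lower (30.7%, against 4.15%) and 7 at least 4-fold (4.58%, against 0.199%). Their median GRO ratio was -0.56. Chrdl1 alone, at -2.45 in FGOs, was past 4-fold the other way in GROs (2.13). Over 12916 genes the ratios of both stages had a Pearson correlation of 0.452 and a Spearman correlation of 0.338, where genes are not independent and within a stage share all libraries. That each stage shares the iPSC line, and perhaps the mouse stock, applies to all of these counts. The study also reports that iPSC-derived GROs were larger than in vivo GROs. The GRO ratios used all GROs whatever their size, and the part of size in them was not tested.

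At both stages, 28 genes were at least 4-fold apart with no overlap between the oocytes, 27 of them higher (0.209% of the 12916 genes tested at both stages) and only Lyplal1 lower (0.00774%). In GROs alone 61 genes (0.454%) were at least 4-fold higher and 5 (0.0373%) lower without overlap. Bfsp1 was at 29.4, 104 and 339 CPM in iPSC-derived GROs and at most 1.54 CPM in in vivo GROs, a GRO ratio of 7.78. Pnpla3 was at 494, 639.7 and 925 CPM against 3.33, 4.73 and 7.81 CPM (6.83). Spesp1 was at 10.7, 20.3 and 92.1 CPM against at most 0.274 CPM (5.90). For each of these genes the lowest iPSC-derived GRO lay above the highest in vivo GRO. Lyplal1 was at 20.1, 24.98 and 33.6 CPM against 95.3, 155 and 215 CPM (-2.53), and so was lower in iPSC-derived oocytes at both stages by a like amount. Ldha, the muscle-type lactate dehydrogenase, was the reverse in size, with a ratio of 6.59 in GROs (18.9, 126 and 567 CPM against 0, 0.783 and 5.57 CPM) and 2.14 in FGOs. By contrast, the FGO differences of Hspa5 (-2.29), Nlrp14 (-1.45) and Padi6 (-1.45) were set beside GRO ratios of -0.61, -0.02 and -0.12.

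**Figure D3:**
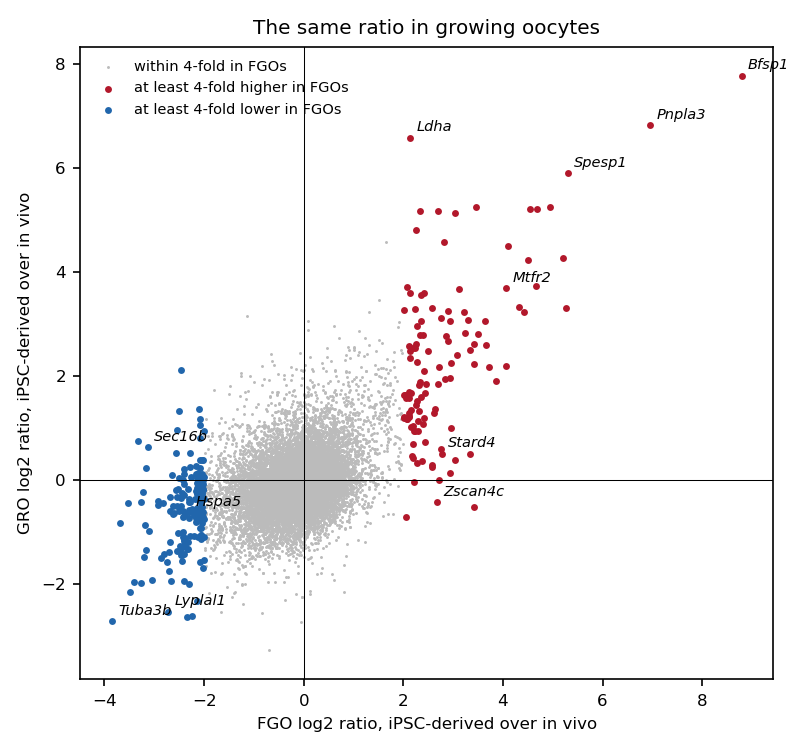
Log2 ratio of iPSC-derived over in vivo oocytes in FGOs (x axis) and in GROs (y axis) for each gene; red and blue points are the 116 and 153 genes past 4-fold in FGOs. Nearly all red points lie above 0 on the GRO axis (112 of 116), while the blue points are spread around a median of -0.56.

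The ratio of iPSC-derived over in vivo FGOs is the exact sum of 3 parts: iPSC-derived over gonad-derived (IVP), gonad-derived over 6 dpp (IVD) and 6 dpp over in vivo (IVG). These parts share groups and are set side by side only, and each also holds any difference in mouse stock. Follicles of the iPSC source were also kept in IVG for longer than those of the gonad source. Reconstituted ovaries of the gonad source were made from all gonadal cells. Those of the iPSC source joined germ cell precursors to gonadal somatic cells depleted of germ cells. The IVP part holds these differences as well, and their share in it was not tested. IVP held the largest part for 75 of the 116 higher genes (64.7%), IVD for 26 (22.4%) and IVG for 15 (12.9%). Among the 153 lower genes IVP held the largest part for 70 (45.8%), IVD for 16 (10.46%) and IVG for 67 (43.8%). For 59 of the higher and 116 of the lower genes no single step reached 4-fold, and for 54 and 74 all 3 parts had the same sign. The lower genes also had the smaller ratios, with 16 past log2 3 against 33 of the higher genes, so that these counts are not compared between the sets. The genes were picked by their whole ratio, in which iPSC-derived FGOs enter only the IVP part and in vivo FGOs only the IVG part. This choice favours those parts over IVD in advance. No share over all genes was taken beside these counts, so they do not rank the culture steps.

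**Figure D4:**
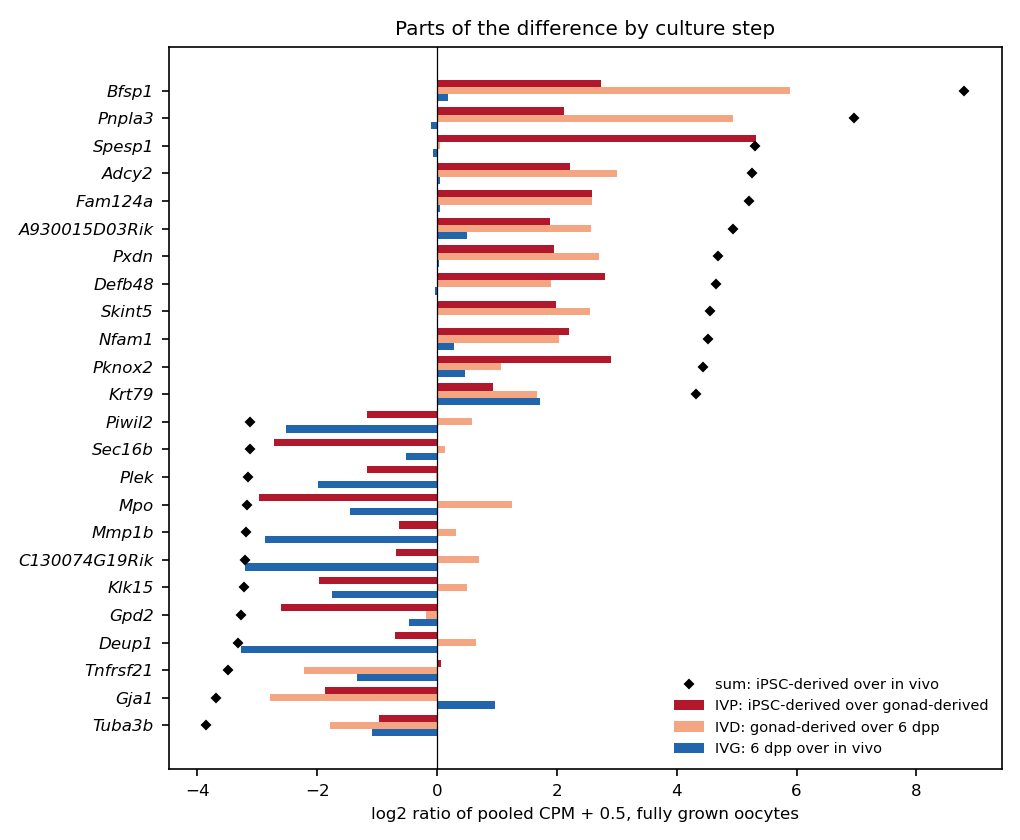
Parts of the FGO log2 ratio by culture step for the 24 genes named by rule (bars: IVP, IVD and IVG from pooled CPM; diamonds: their sum, iPSC-derived over in vivo). The IVP part of Spesp1 (5.32) is close to its whole ratio (5.31), and Deup1, C130074G19Rik and Mmp1b have their largest part in IVG.

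For a number of higher genes the split between IVP and IVD rested on a minority of gonad-derived oocytes. Pnpla3 was at 561 to 1005 CPM in 5 of the 24 gonad-derived FGOs (10, 17, 18, 19 and 22), within or above the iPSC-derived range, and at 1.84 to 6.19 CPM in the other 19. Bfsp1 was at 168 to 245 CPM in 4 gonad-derived FGOs (17, 18, 21 and 22), at 88.7 CPM in 1 more, and its median over the 24 was 0. Levels in the range of iPSC-derived FGOs were likewise found in 6 gonad-derived FGOs for Adcy2, 5 for Fam124a, 7 for A930015D03Rik, 4 for Defb48 and 4 for Skint5, and in no 6 dpp FGO for any of these 7 genes. Spesp1 and Ptpn5 were in that range in none of the gonad-derived FGOs, and Lyplal1 was likewise in none. Further higher genes found in that range in no gonad-derived FGO were Fam241a, Tnr, Pak3, Mettl7a1, Slc27a2, Manba, Rccd1, Sis, Tmem189, Gm4349, Ralgds, Dynlt1b, Mcub and Il17b.

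The same gonad-derived oocytes recurred. Of the 46 higher genes without overlap, the gonad-derived FGOs 17 to 23 held 22, 21, 17, 20, 15, 24 and 14 at a level within the iPSC-derived range, and the other 17 held 1 to 10. The 6 dpp FGOs held 0 to 10. Of the 36 lower genes without overlap, gonad-derived FGOs 17 to 23 held 13, 19, 28, 17, 14, 20 and 18 within the iPSC-derived range. The other 17 held 4 to 15 and the 6 dpp FGOs 3 to 20. The split thus held in part for the lower genes. Gonad-derived FGOs 18, 19, 20, 22 and 23 lay above the other 17, and FGOs 17 and 21 lay among them. Gonad-derived FGOs 17 to 23 had totals of 2906898 (FGO 22) to 7586474 reads (FGO 18). What sets these oocytes apart from the rest of their group is not given in the labels and was not tested. With the median over oocytes in place of the pooled level, IVP held the largest part for 91 of the 116 higher genes (78.4%), IVD for 11 (9.48%) and IVG for 14 (12.1%), and the lower genes changed little (71, 13 and 69). In gonad-derived GROs Pnpla3 ranged from 3.06 to 670 CPM with a median of 493 CPM. Bfsp1 ranged there from 0 to 223 CPM with a median of 0.148 CPM, so that these genes differed in how many gonad-derived GROs were high.

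The meiotic prophase pairs and exchanges chromosomes in the fetal ovary and is long past in an FGO. Of 21 genes of meiotic cohesion and synapsis that passed the filter, 3 were at least 4-fold higher (0.854% of all genes) and none lower. At 2-fold the same 3 were higher (14.3%, against 4.03% of all genes) and 1, the mismatch repair gene Mlh3 (-1.09, named after its values were seen), was lower (4.76%, against 9.84%). The median of the list was -0.13, near the -0.09 of all genes. Hormad1, which marks unsynapsed chromosome axes, was at 3.57, 16.1 and 24.9 CPM against 0.155, 0.947 and 1.63 CPM (ratio 3.49) with no overlap. Sycp3, a chromosome axis protein, was at 11.3, 99.1 and 426 CPM against 13.2, 21.6 and 36.2 CPM (2.29). It overlaps Chpt1, and at least 1 iPSC-derived FGO lay below the whole in vivo range. Meioc, which is needed for the long meiotic prophase, was at 1.16, 6.67 and 24.4 CPM against 0, 0.774 and 3.40 CPM (2.31). Hormad1 was set apart in GROs as well (6.34, 15.0 and 25.96 CPM against 0.399, 1.57 and 4.07 CPM), and the GRO ratios of Sycp3 and Meioc were 0.95 and 1.84. Members of the list at higher levels, Syce2 (0.31), Smc3 (0.45), Sgo2a (-0.08) and Sgo1 (0.07), were within 2-fold.

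Germline meiotic genes are known for promoters with E-boxes and E2F sites, and the promoters of these 3 genes are shown to give that context. The windows run from 250 bases before to 50 after the start of the gene (RefSeq, GRCm38.p6). Capitals mark the E-box CACGTG and the E2F letters TCCCGC, which were searched on both strands and so may read GCGGGA. Hormad1 (first of 2 windows) lies at chr3:95559427-95559726, Sycp3 at chr10:88459337-88459636 and Meioc at chr11:102665335-102665634, all on the + strand.
Hormad1: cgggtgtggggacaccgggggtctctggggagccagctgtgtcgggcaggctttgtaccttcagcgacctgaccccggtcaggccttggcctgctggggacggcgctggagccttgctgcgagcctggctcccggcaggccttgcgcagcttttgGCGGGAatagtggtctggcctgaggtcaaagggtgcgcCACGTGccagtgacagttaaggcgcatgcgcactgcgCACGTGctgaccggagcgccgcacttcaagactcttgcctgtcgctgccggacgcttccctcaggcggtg
Sycp3: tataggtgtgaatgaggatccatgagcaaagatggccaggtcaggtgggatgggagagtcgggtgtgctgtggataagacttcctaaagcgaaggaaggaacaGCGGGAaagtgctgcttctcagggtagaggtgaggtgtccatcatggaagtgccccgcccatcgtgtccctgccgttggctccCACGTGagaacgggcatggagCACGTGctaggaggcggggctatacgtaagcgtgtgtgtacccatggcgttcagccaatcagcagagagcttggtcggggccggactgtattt
Meioc: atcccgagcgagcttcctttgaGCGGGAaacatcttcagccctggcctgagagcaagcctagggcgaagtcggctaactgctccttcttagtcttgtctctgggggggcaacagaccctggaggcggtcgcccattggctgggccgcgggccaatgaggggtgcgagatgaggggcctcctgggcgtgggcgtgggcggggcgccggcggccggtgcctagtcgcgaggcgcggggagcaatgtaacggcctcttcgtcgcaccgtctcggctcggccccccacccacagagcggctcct
Hormad1 and Sycp3 each hold 2 E-boxes and 1 E2F match, and Meioc holds no E-box and 1 E2F match. E-box letters occurred in 7 of 18 list members with a window, in 11.0% of the 10681 tested genes with a window and in 7.15% of all 32851 windows. E2F letters occurred in 11 of 18 members, in 36.4% of tested genes and in 20.0% of windows. A match of letters is a description and shows no binding.

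Of 29 genes of the amino acid and ER stress response, among them the chaperones of the ER, 2 were at least 4-fold lower (1.13% of all genes) and none higher. At 2-fold, 9 were lower (31.0%, against 9.84% of all genes) and 2 higher (6.90%, against 4.03%). The list's median was -0.37 and its GRO median -0.10. The summed level of the list did not overlap, at 2455, 2799 and 3408 CPM in iPSC-derived and 3819, 4305 and 4825 CPM in in vivo FGOs. Hspa5, the ER chaperone BiP, was at 29.4, 118 and 355 CPM against 363, 662 and 874 CPM (-2.29), so that every iPSC-derived FGO lay below every in vivo FGO. The gene overlaps Rabepk. Dnajc3, a cochaperone of BiP, was at 169, 248 and 324 CPM against 350.4, 534 and 629 CPM (-1.11), also with no overlap.

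Calr, the calcium-binding chaperone calreticulin, was at 102, 262 and 489 CPM against 321, 565 and 719 CPM (-1.04). Atf4, the transcription factor of the integrated stress response, was at 51.3, 137 and 293 CPM against 240.1, 429 and 549 CPM (-1.49), with a slight overlap, and was named after its values were seen. Xbp1, the transcription factor of the unfolded protein response, was at 0, 0.987 and 4.52 CPM against 0, 3.29 and 23.4 CPM (-2.40). It was at 26.3 CPM or more in every GRO of both sources, and its ratio fell short of 4-fold by medians (-1.35) and without the 6 oocytes set aside (-1.37). The members at least 2-fold higher were Dnajb9 (1.08) and Ddit4 (1.31). The part of IVP in the Hspa5 ratio was -0.97, that of IVD 0.01 and that of IVG -1.33.

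The ER stress response element is a regulatory sequence of such chaperone genes. Its letters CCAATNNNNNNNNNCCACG, searched on both strands, occurred in the windows of 4 of 27 list members, in 0.197% of the 10681 tested genes with a window and in 0.119% of all windows. The 4 windows are shown with these letters in capitals, where Calr and Creld2 hold them on the opposite strand. They lie at chr2:34771840-34772139 (Hspa5, + strand), chr14:118937682-118937981 (Dnajc3, + strand), chr8:84846882-84847181 (Calr, - strand) and chr15:88819396-88819695 (Creld2, + strand).
Hspa5: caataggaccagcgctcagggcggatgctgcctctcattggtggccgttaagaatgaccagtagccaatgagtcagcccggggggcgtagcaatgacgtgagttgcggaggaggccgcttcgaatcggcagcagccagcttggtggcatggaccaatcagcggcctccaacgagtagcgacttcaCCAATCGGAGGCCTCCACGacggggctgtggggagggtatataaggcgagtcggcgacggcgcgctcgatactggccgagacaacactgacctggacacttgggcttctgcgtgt
Dnajc3: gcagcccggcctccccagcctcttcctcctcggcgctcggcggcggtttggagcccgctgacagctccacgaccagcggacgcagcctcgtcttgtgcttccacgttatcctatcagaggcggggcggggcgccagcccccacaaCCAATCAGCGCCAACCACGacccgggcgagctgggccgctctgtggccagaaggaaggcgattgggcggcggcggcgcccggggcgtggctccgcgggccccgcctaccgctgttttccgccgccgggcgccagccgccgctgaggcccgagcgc
Calr: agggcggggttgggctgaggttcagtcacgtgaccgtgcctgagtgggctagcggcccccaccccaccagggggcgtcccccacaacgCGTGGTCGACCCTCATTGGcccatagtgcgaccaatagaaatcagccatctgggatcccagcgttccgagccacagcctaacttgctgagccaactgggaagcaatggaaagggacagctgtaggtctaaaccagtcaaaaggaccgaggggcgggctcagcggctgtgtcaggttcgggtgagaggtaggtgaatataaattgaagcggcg
Creld2: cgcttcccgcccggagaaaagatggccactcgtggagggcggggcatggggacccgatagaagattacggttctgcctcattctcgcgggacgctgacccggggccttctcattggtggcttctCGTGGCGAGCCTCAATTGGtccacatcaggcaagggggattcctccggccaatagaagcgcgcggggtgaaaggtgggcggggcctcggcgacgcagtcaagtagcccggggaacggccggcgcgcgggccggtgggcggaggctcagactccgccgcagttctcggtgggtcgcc
Creld2, a secreted ER stress protein, was at 172, 289 and 427 CPM against 231, 325 and 591 CPM (-0.35). Of the genes at least 4-fold apart that had a window, 0 of 85 higher and 1 of 122 lower genes held these letters. The check of CpG content in promoters was void, since fewer than 80% of the genes had a window (73.3% of the higher, 79.7% of the lower and 78.6% of all).

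Among 24 genes of the heat shock and chaperonin list, 1 was at least 4-fold lower (1.13% of all genes), 2 were at least 2-fold lower (8.33%, against 9.84%) and the median was -0.23. Cct6a, a chaperonin subunit, was at 1.30, 3.49 and 22.4 CPM against 3.71, 27.3 and 126 CPM (-2.65, and -2.06 without the 6 oocytes set aside by size). In GROs Cct6a was at 80.0 CPM or more in vivo and at 98.0 CPM or more in those from iPSCs, and it overlaps Psph. Hsp90aa1, the stress-inducible form of HSP90, was at 181, 359 and 487 CPM against 575, 663 and 807 CPM (-0.86) with no overlap, and was also lower in GROs (-0.96). Dnajb4 (0.05), Dnajb1 (0.10) and Cct8 (-0.19) were near equal.

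Of 30 genes of cholesterol synthesis, 1 was at least 4-fold higher (0.854% of all genes) and none at least 4-fold lower (1.13% of all genes). At 2-fold, 7 were higher (23.3%, against 4.03% of all genes) and none lower (9.84% of all genes). The median of these genes was 0.44 (0.09 in GROs). Their summed level did not overlap, at 3425, 3769 and 4636 CPM against 2592, 2834 and 2982 CPM. Stard4, a sterol transporter of the cytosol, was at 39.3, 75.4 and 115 CPM against 6.10, 10.0 and 15.0 CPM (ratio 2.77). All iPSC-derived FGOs lay above the in vivo FGOs, and its GRO ratio was 0.51. The IVG part of the Stard4 ratio was 1.99 and the IVP part 1.13. Fdft1 (0.21), Insig1 (0.64), Lbr (0.36) and Scap (0.18), the members at higher levels, were within 2-fold. Named after their values were seen, the synthesis enzyme Msmo1 (ratio 1.43, at 124 against 45.5 CPM pooled) and the transcription factor Srebf2 (1.43, at 15.2 against 5.33 CPM) were among the members at least 2-fold higher.

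Of 37 lipid droplet and fatty acid genes, Pnpla3 alone was past 4-fold (0.854% of all genes higher and 1.13% lower). At 2-fold, 2 were higher (5.41%, against 4.03% of all genes) and 5 lower (13.5%, against 9.84%), and the median was -0.21. The groups did not overlap for 2 higher and 2 lower members (1.22% and 1.95% of all genes). The summed level of the list was 2253, 2549 and 2868 CPM against 1659, 1831 and 1982 CPM, without overlap. Of this sum Pnpla3 held 620 and 4.51 CPM pooled. Pparg, a nuclear receptor that drives lipid storage, was at 103, 181 and 240.3 CPM against 35.8, 79.2 and 101 CPM (1.25), with no overlap. Acsl3, an acyl-CoA synthetase of lipid droplets, had a ratio of 0.82 and Elovl5 one of -0.01.

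Of 34 glycolysis genes 1 was at least 4-fold higher (0.854% of all genes), 4 at least 2-fold higher (11.8%, against 4.03% of all genes) and 3 at least 2-fold lower (8.82%, against 9.84%), with a median of 0.10 in FGOs and 0.44 in GROs. Ldha was at 0.260, 23.4 and 111 CPM in iPSC-derived FGOs and at 0.455, 3.49 and 40.5 CPM in vivo, so the groups overlapped over much of their range. Without iPSC-derived FGO 22 its ratio was 1.94. The glycolytic enzyme Tpi1 was at 93.0, 274 and 441 CPM against 77.9, 116 and 144 CPM (1.26), Aldoa had a ratio of 0.80, the glucose transporter Slc2a1 0.30 and Ldhb, the lactate dehydrogenase form of oocytes, -0.34.

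Of the oocyte identity genes, all but Sohlh1, a transcription factor of early follicles that was listed at 0 in some oocytes of both groups, had reads in all 44 FGOs. None of the 17 genes was past 4-fold, 4 were at least 2-fold lower (23.5%, against 9.84% of all genes) and none 2-fold higher (4.03% of all genes), and the median was -0.39 against -0.04 in GROs. The linker histone gene H1f8 was at 7001, 8148 and 9215 CPM against 4983, 6177 and 7099 CPM (0.41). Gdf9 was at 2913, 4988 and 8088 CPM against 5531, 9841 and 11407 CPM (-0.94), and overlaps Uqcrq. Zp3 (-0.63) and Bmp15 (-0.62) were lower by less. Named after their values were seen, Zp2 was at 1066, 1894 and 3416 CPM against 2958, 4835 and 6849 CPM (-1.3003), and Zp1 at 778, 1241 and 1726 CPM against 1767, 2642 and 3639 CPM (-1.09). The highest iPSC-derived FGOs thus reached the lowest in vivo FGOs for Gdf9 and Zp2, and not for Zp1. In GROs the ratios of Zp1 and Zp2 were -0.11 and -0.27.

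Among 30 maternal effect and subcortical complex genes none was past 4-fold, 5 were at least 2-fold lower (16.7%, against 9.84% of all genes) and none 2-fold higher (4.03% of all genes), with a median of -0.02. Their summed level was 40452, 44138 and 49507 CPM in iPSC-derived and 50546, 56764 and 65492 CPM in in vivo FGOs, without overlap. Nlrp14 was at 1056, 3749 and 5994 CPM against 6919, 9852 and 13147 CPM (-1.45). Padi6, the protein of the cytoplasmic lattices, was at 1141, 3594 and 5775 CPM against 6223, 9696 and 12073 CPM (-1.45). Tle6, of the subcortical complex, was at 1034, 2125 and 2938 CPM against 3489, 4893 and 5992 CPM (-1.23). All 24 iPSC-derived FGOs lay below all 20 in vivo FGOs for each of these genes. The medians of Nlrp14, Padi6 and Tle6 were together lower by more than the median of the summed level. The sum thus does not describe the list as a whole. Zbed3, of the same complex, went slightly the other way (11614, 14342 and 17406 CPM against 8765, 10134 and 12355 CPM, ratio 0.47), so that members of 1 complex did not move together. Nlrp14 belongs to a family with near relatives and overlaps olfactory receptor genes, and Tle6 overlaps Tle2. The largest part of the Nlrp14, Padi6 and Tle6 ratios was IVG (-1.24, -1.10 and -0.94), and all 3 were near equal in GROs (-0.02, -0.12 and 0.17).

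Of 29 genes of Kit, PI3K and mTOR signalling none was past 4-fold, and the members at least 2-fold higher (2, 6.90%, against 4.03% of all genes) and lower (3, 10.3%, against 9.84%) were near the share of all genes, with a median of -0.02. Kit, the receptor by which the oocyte reads the granulosa ligand Kitl, was at 70.1, 133 and 179 CPM against 181, 267 and 326 CPM (-1.10). Foxo3, the transcription factor that holds oocytes dormant, was at 79.5, 132 and 236 CPM against 22.2, 32.9 and 78.4 CPM (1.89), and was named after its values were seen. The groups overlapped for neither. Rheb (0.33), Foxo1 (-0.05) and Stk3 (-0.37) were within 2-fold.

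Of 12 granulosa cell markers 2 were at least 4-fold lower (1.13% of all genes) and 6 at least 2-fold lower (50.0%, against 9.84% of all genes), with a median of -0.89 (-0.57 without the 6 oocytes set aside). Hsd17b1, a steroid dehydrogenase, had a ratio of -2.15 and of -1.46 without in vivo FGO 16, which held 46.9 CPM. These oocytes had been stripped of somatic cells, and the part of residual granulosa RNA in the lower genes was not tested. The 12 theca and stroma markers summed to at most 12.7 CPM in iPSC-derived FGOs and 41.7 CPM in in vivo FGO 16, the 5 cumulus markers to at most 3.47 CPM, and of 6 blood markers only Pecam1 exceeded 1 CPM in pooled level (113 and 124 CPM).

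None of 31 genes of xenobiotic metabolism was past 4-fold, 10 were at least 2-fold lower (32.3%, against 9.84% of all genes) and 1 was higher (3.23%, against 4.03%), with a median of -0.66 and a GRO median of -0.17. Gstm5 was at 26.4, 110.2 and 257 CPM against 211, 262 and 349 CPM (-1.12), Gsta4 at 18.2, 56.3 and 90.3 CPM against 44.0, 122 and 229 CPM (-1.17), and the efflux pump Abcb1b had a ratio of -0.72. Both glutathione transferases have near relatives. The member that was higher was Arnt, the partner of the Ahr receptor, at 54.8, 73.4 and 115 CPM against 18.0, 31.0 and 41.1 CPM (1.33) with no overlap, named after its values were seen. Of 28 antioxidant genes 2 were at least 2-fold higher (7.14%, against 4.03% of all genes) and 4 lower (14.3%, against 9.84%), with a median of 0.14. The summed level of the antioxidant list did not overlap, at 3058 to 4203 CPM against 2532 to 2935 CPM. That of the xenobiotic list did not overlap either, by a narrow gap, at 630 to 904 CPM against 906 to 1180 CPM. For 3 members every iPSC-derived FGO lay above every in vivo FGO (1.22% of all genes), among them Sod1 (0.58) and Prdx2 (0.40), and Glrx had a ratio of 0.54.

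Of 42 Polycomb group genes none was past 4-fold and 1, Mga, was at least 2-fold lower (-1.39; 2.38%, against 9.84% of all genes), with a median of 0.08. Ezhip, an inhibitor of the Polycomb methyltransferase, had a ratio of 0.79, and Rbbp7, Usp7 and Skp1 had ratios of 0.49, 0.08 and -0.04. Among 23 genes of DNA methylation and demethylation none was past 4-fold, 1 was at least 2-fold higher (4.35%, against 4.03% of all genes) and 4 lower (17.4%, against 9.84%), with a median of -0.23. The maintenance methyltransferase Dnmt1 was at 399, 1062 and 3318 CPM against 802, 1303 and 3356 CPM (-0.39) and Uhrf1 had a ratio of -0.29. Zfp57 (0.19) and Dppa3 (0.27), which protect methylation in the early embryo, were near equal.

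Genes of meiotic arrest and resumption were near equal: of 35, none was past 4-fold, 2 were at least 2-fold lower (5.71%, against 9.84% of all genes) and none higher (4.03% of all genes), and the median was -0.0021. Wee2, a kinase that holds the arrest, was at 1227, 1509 and 1879 CPM against 1137, 1599 and 1832 CPM. Bub1b (-0.07), Mos (0.19) and Aurka (0.44) were within 2-fold. Of 22 genes of pluripotency and germ cell specification none was past 4-fold, 2 were at least 2-fold higher (9.09%, against 4.03% of all genes) and 1 lower (4.55%, against 9.84%), and the median was 0.31 against -0.11 in GROs. Pou5f1, a pluripotency factor that oocytes also express, was at 129, 166 and 268 CPM against 64.0, 91.2 and 137 CPM (0.92), with Tcl1 at 0.29, Sall4 at -0.18 and Dppa5a at 0.11.

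**Figure D5:**
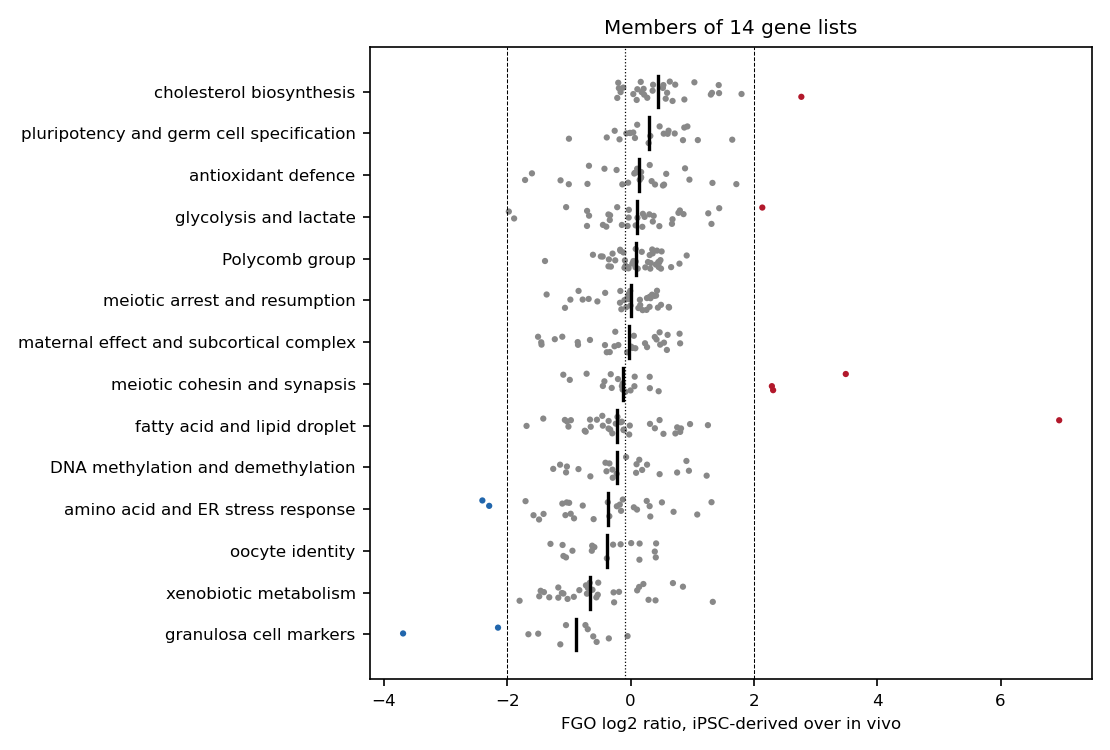
FGO log2 ratio (iPSC-derived over in vivo) of each member of 14 gene lists; the bar is the median of a list, the dotted line the median of all genes (-0.09), and red and blue points are members at least 4-fold higher or lower. Of these lists cholesterol synthesis has the highest median (0.44) and granulosa cell markers the lowest (-0.89).

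In the remaining lists 1 or 2 members at most were past 4-fold (0.854% of all genes higher and 1.13% lower). The members at least 2-fold higher made up 20.0% of chemokine and cytokine genes, 15.8% of retinoid metabolism, 11.8% of the interferon response, 10.3% of imprinted genes, 8.33% of zygotic genome activation and 0% of cell adhesion, against 4.03% of all genes. Those at least 2-fold lower made up 6.67%, 10.53%, 5.88%, 6.90%, 4.17% and 15.6% in the same order, against 9.84%. The medians of these lists were 0.17 for imprinted genes (29 genes), 0.20 for genes of zygotic genome activation (24), -0.11 for cell adhesion (32), 0.22 for retinoid metabolism (19), -0.46 for chemokines and cytokines (15) and -0.09 for the interferon response (17). No member was past 4-fold among genes of the Notch pathway (22 genes, median -0.11), hypoxia response (21, 0.14), p53 targets and oocyte death (32, 0.02), spindle and actin (31, 0.0022) and calcium handling (20, -0.09). Without the 6 oocytes set aside by size the Notch median was 0.09. The imprinted gene Gab1 had a ratio of 2.31 and of 1.62 without iPSC-derived FGO 13, which held 81.5 CPM, and Nnat one of -2.12, of -1.77 without in vivo FGO 16 and of -1.49 without the 6 oocytes set aside. Zscan4c, a gene of the 2-cell embryo with near-identical copies, had a ratio of 2.68 (0, 0.782 and 78.5 CPM against 0, 0.282 and 1.28 CPM) and of 1.88 without iPSC-derived FGO 14. The chemokine gene Ccl2 had 2.01 and, without the same oocyte, 1.56. That oocyte and iPSC-derived FGO 24 lay farthest out on the third principal component (59.0 and 37.2, 5.08% of the variance). Naip6, one of a family of near relatives, had a ratio of 3.72 (0, 3.01 and 63.2 CPM against 0, 0.201 and 0.587 CPM). Tcstv3 (-2.09), Itgb4 (-2.55), Cd81 (-2.54) and Stra6 (-2.12) were lower, of which Cd81 was at -1.79 and Tcstv3 at -1.83 without the 6 oocytes set aside.

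Variation among oocytes was larger in the iPSC-derived group. Over 5280 genes at 20 CPM or more in both groups, the median SD of log2(CPM + 1) over oocytes was 0.263 in iPSC-derived and 0.214 in in vivo FGOs, and 69.7% of the genes had the larger SD in iPSC-derived FGOs. Without the 6 oocytes set aside by size the medians were 0.247 and 0.172, and the share was 85.8%. Total reads per oocyte also had the wider range in iPSC-derived FGOs, and the part of depth in this difference was not tested. Hspa5, Nlrp14 and Padi6 were among the genes with a wide spread within the iPSC-derived group, from 29.4 to 355, from 1056 to 5994 and from 1141 to 5775 CPM, with iPSC-derived FGO 13 highest for Hspa5.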

How the data were processed

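Single oocytes were processed with a Smart-seq2 protocol. As the methods and the processing notes state, the authors aligned reads with STAR to mouse GRCm38/mm10 and deposited raw counts, made with QuasR (version not given in the sources used here) from uniquely mapped reads in the exons of 1 randomly chosen transcript a gene. Whether the counting used strand is not given there either.

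Here the counts of 1 table were scaled to CPM by each library's total, and genes with more than 1 CPM in at least 3 of the 92 FGOs were kept. Groups follow the sample labels. Each group counts as 1 sample, so that no p-value is given, and a size of 4-fold stands in its place. Named were the 12 genes a direction with the largest ratio (5 CPM or more, past 4-fold by medians and with any oocyte left out), members of 30 lists past 4-fold, up to 4 members of highest level a list, and the 2 genes a direction nearest the threshold on either side. Other genes were named after their values were seen. The members and lists were chosen with earlier results of these data known. Alternatives were TMM (edgeR 4.0.16) and DESeq2 1.42.0 size factors, pseudocounts, filters, averages and omitted oocytes. Scripts ran in Python 3.11.15 and R 4.3.3 and were tested on simulated data.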

Additional observations from a re-analysis of the deposited data

How the results depend on the processing

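The counts of genes past 4-fold depended on the pseudocount. With 0.1 CPM in place of 0.5, 234 genes were higher and 384 lower, and 79.5% lay within 2-fold. With 2 CPM these values were 47, 39 and 92.6%. At a size of log2 1 the counts were 547 and 1337 and at log2 3 they were 33 and 16. The share within 2-fold was 89.9% with no filter, 86.9% by mean log2 CPM and 87.3% without the oocytes set aside by size. The median ratio of all genes, -0.09, was -0.0269 with TMM, -0.0467 with DESeq2 size factors, -0.0297 with no filter and -0.0287 without the set-aside oocytes. With a pseudocount of 2 CPM, 87.2% of the lower genes had the same direction in GROs, IVP and IVG held the largest part for 74.5% and 4.26% of the higher genes, and IVD and IVG for 17.9% and 33.3% of the lower genes. By medians over oocytes, chosen after seeing the data, IVP and IVD held it for 78.4% and 9.48% of the higher genes. With 1 oocyte left out, higher counts ran from 107 to 120, lower counts from 128 to 166, the share within 2-fold from 85.7% to 86.5%, the median ratio from -0.09 to -0.07 and the X-linked minus autosomal median from -0.02 to 0.02. The values without in vivo FGO 19 were also chosen after seeing the data.

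Of 550 values of 50 genes (those named by rule, near the threshold or as list members past 4-fold) under alternatives, 38 moved and 0 changed sign. Of the 46 of them past 4-fold, 18 fell short with a pseudocount of 2 CPM, 10 without the set-aside oocytes, 10 by mean log2 CPM, 9 by medians, 2 with TMM, 2 with DESeq2 size factors and 10 with 1 oocyte left out. No paired analysis was possible because the numbers in the titles only name oocytes and no test was made.

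Each group is 1 sample with no named animal or culture, all iPSC-derived oocytes came from 1 line, and the in vivo strain is not given in the sources used here, so that source, stock and culture cannot be told apart. Levels below about 1 CPM rest on few reads an oocyte.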
